A study of Mus musculus with 60 samples.

Results

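The 9 mouse Pax genes, Pax1 to Pax9, were examined for trimethylation of histone H3 at lysine 27 (H3K27me3). They are all members of the family and 9 of 21938 protein-coding genes of the annotation. They were chosen by name, and each was read over a window of the gene body with 20 kb on each side (mm10). The assay was CUT&RUN, which releases and sequences the DNA around an antibody bound in chromatin, and the cells were C3H 10T1/2, a line of mesenchymal progenitors from the mouse. Every cell population kept its endogenous histone H3 and carried in addition human H3 with HA and FLAG tags, from a lentiviral vector with an EF1 promoter. The transgene was wild type (H3WT) or carried cysteine in place of a single tail arginine, giving H3R2C, H3R8C, H3R17C and H3R26C. An antibody to H3K27me3 read the mark on all H3, and an antibody to the HA tag read where transgenic H3 was found.

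Each of the 5 genotypes had 3 labelled replicates with each antibody, but 2 of the 3 peak lists in a group held identical values and were counted as 1 library. This left 2 independent libraries in each group. For H3R17C, 1 usable H3K27me3 library remained, because the name of the other list gave a different mark than its label. The 9 H3K27me3 lists held between 20077 and 24598 peaks each, and their median peak width was 1.9 to 3.75 kb. The 10 HA lists were less alike, from 15344 to 52083 peaks and from 0.8 to 10.7 kb in median width. No start site of 13 genes used by mesenchymal progenitors, such as Col1a1, Vim and Pdgfra, carried an H3K27me3 peak in both H3WT libraries. Over all protein-coding genes, 10% and 10.7% of start sites carried one in these libraries. The windows of Col1a2, Twist1 and Twist2 held H3K27me3 peaks away from the start in both H3WT libraries.

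Pax proteins are transcription factors that bind DNA through a paired domain. They direct the formation of organs in the embryo and are grouped by sequence into Pax1 and Pax9, Pax2, Pax5 and Pax8, Pax3 and Pax7, and Pax4 and Pax6. H3K27me3 is placed by Polycomb Repressive Complex 2 and spreads over developmental regulators in cells that do not use them. It commonly covers CpG-rich start sites of such genes as broad domains. Whether the Pax domains kept the mark in cells with each mutant histone is the question the comparisons address.

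In H3WT cells 6 of the 9 Pax start sites were marked in both libraries, those of Pax1, Pax2, Pax4, Pax5, Pax6 and Pax7. A start site was counted as marked when a peak touched the 1 kb on either side of it. Over all protein-coding genes, 10% and 10.7% of start sites were marked in the H3WT libraries. Pax9 had H3K27me3 peaks upstream of its start only, and Pax3 and Pax8 had no peak in their windows in any of the 9 libraries. In H3R2C no peak was called in the Pax6 window in either library and the signal at Pax1 and Pax7 fell. In H3R8C no peak was called in the Pax1 window. A missing peak means signal under the threshold of the list and does not show that the mark was gone. Pax2, Pax4 and Pax5 stayed marked at their starts in all 9 libraries.

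**Figure D1:**
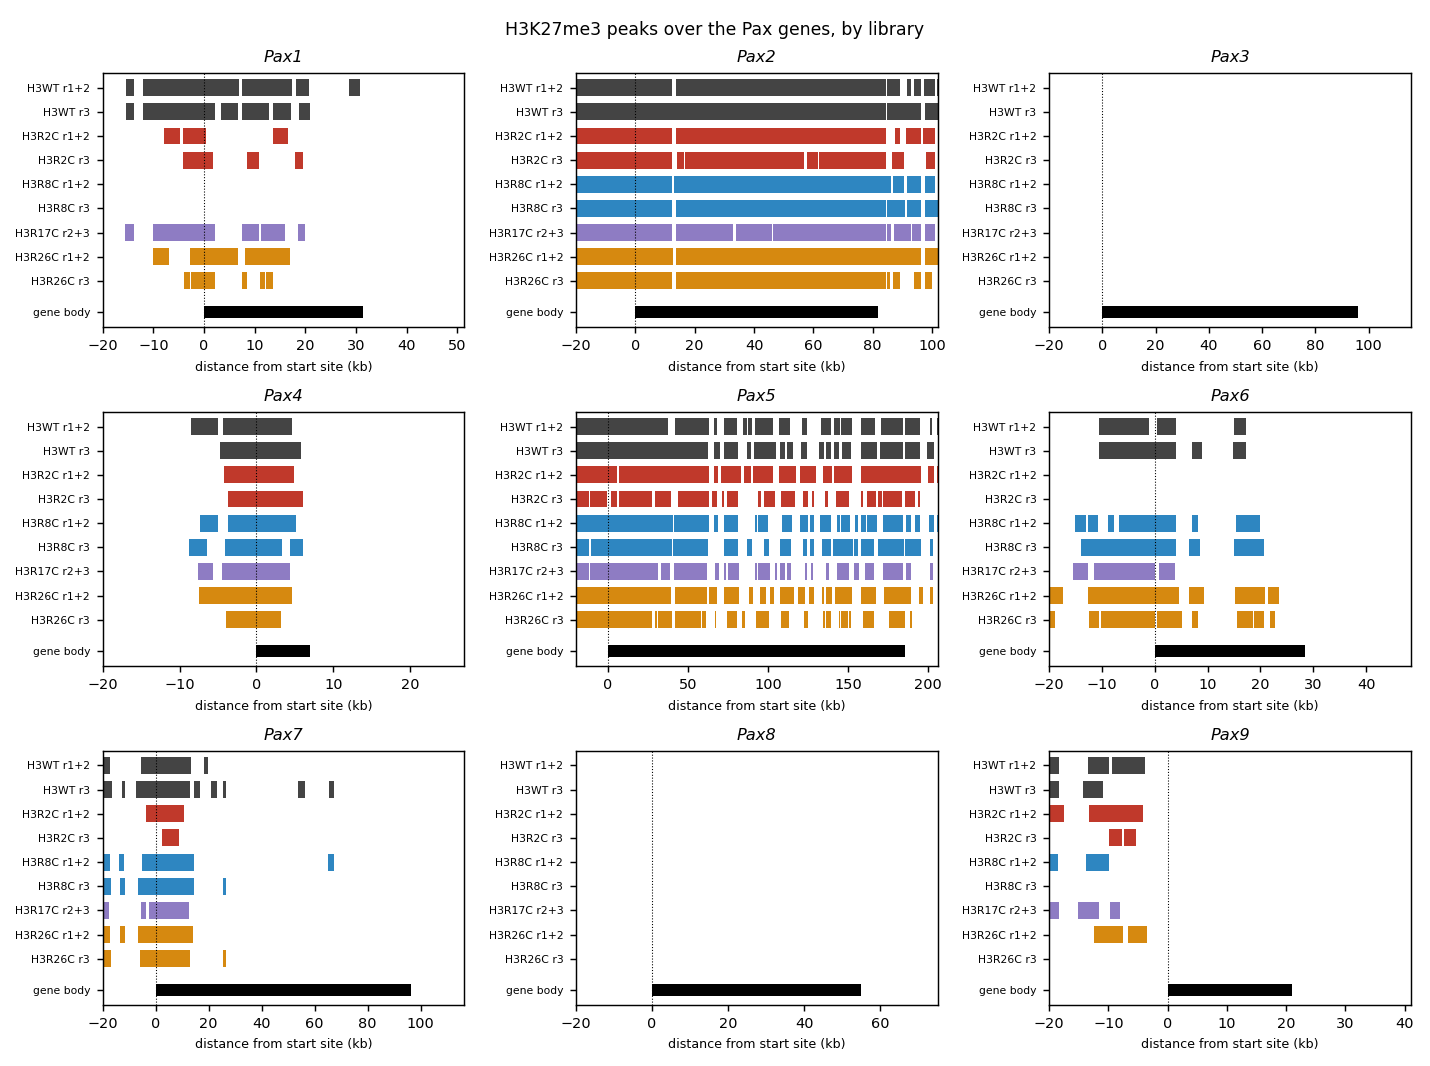
H3K27me3 peaks (bars) across each Pax window by library, against the distance from the annotated start in kb, with the gene body in black and transcription running to the right. Pax2 and Pax5 were covered by long domains in all 9 libraries, Pax6 had no bar in the H3R2C libraries, Pax1 had none in the H3R8C libraries, and Pax3 and Pax8 had none in any library.

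The sequences at the start sites differed in CpG content. RefSeq promoters (GRCm38.p6, 250 bases before to 50 after a start) were matched for 7 of the 9 genes, 10 promoters in all, and not for Pax3 and Pax4. The number of CG dinucleotides in 300 bases ranged from 7 to 30 in the Pax promoters, and its median over 32851 promoters was 7. The promoters of the 3 genes that lost signal in H3R2C are shown with the densest promoter of Pax2, which stayed marked, and that of Pax8, which was not marked. Sequences read 5′ to 3′ on the strand of the gene, and capitals mark CG.

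Pax1 promoter, chr2:147364744-147365043 (+ strand): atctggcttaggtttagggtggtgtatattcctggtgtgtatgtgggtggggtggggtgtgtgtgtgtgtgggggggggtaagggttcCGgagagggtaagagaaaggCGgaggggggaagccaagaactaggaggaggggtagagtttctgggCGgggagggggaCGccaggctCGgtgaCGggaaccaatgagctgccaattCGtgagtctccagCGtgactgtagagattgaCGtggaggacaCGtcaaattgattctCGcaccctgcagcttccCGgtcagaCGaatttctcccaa
Pax6 promoter, chr2:105668646-105668945 (+ strand): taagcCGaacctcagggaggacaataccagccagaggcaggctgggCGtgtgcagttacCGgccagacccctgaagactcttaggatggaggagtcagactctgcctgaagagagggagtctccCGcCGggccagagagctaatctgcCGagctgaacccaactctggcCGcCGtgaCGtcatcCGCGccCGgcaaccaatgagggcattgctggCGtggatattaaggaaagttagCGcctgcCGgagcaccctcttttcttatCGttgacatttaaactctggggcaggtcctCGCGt
Pax7 promoter, chr4:139832919-139833218 (- strand): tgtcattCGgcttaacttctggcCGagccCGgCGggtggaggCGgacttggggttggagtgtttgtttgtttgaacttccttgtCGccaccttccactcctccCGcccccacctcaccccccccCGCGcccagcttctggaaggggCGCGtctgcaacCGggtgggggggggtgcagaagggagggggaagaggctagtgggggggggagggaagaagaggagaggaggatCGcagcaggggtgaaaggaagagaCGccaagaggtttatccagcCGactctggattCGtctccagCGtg
Pax2 promoter, chr19:44756656-44756955 (+ strand): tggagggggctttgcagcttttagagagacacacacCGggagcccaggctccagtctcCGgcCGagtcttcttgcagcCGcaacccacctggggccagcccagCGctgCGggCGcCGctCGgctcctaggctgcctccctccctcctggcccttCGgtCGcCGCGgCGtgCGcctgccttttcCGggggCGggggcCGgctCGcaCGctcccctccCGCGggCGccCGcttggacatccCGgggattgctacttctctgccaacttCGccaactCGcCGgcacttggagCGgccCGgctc
Pax8 promoter, chr2:24475550-24475849 (- strand): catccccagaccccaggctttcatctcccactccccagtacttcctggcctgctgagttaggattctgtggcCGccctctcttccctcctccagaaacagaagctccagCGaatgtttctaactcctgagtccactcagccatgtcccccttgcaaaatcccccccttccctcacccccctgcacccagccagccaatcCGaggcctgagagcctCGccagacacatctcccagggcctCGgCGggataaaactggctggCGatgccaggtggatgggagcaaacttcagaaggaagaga

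These promoters held 13 CG at Pax1, 18 at Pax6, 17 at Pax7, 30 at Pax2 and 7 at Pax8. The 3 Pax2 promoters lay under an H3K27me3 peak in all 9 libraries, although one of them, at -9.44 kb from the annotated start, held 7 CG as the Pax8 promoter did. The Pax7 promoter was under a peak in 8 libraries and the Pax6 promoter shown in 6. The Pax6 promoter had none in H3R2C or in H3WT replicates 1 and 2. A second Pax6 promoter, 13.6 kb downstream and with 16 CG, was under a peak in none. The letters CAGCTG, searched on both strands, were found in 1 of the 10 Pax promoters, a Pax2 promoter, and in 16.3% of all promoters. A match describes the letters only.

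For levels, the signal of the peaks inside a window was summed and divided by the median signal of regions called in every library, and is called the scaled signal. The weakest peak of a list corresponded to a scaled signal of 0.125 to 0.195, depending on the library. A window was tested with limma on log2(scaled signal + 0.25) if it held a peak in both libraries of at least 1 genotype. Of 21938 windows, 8190 passed this filter, and 7 of the 9 Pax windows were among them. A window that passed through a single genotype had to differ from the others, and a window without a peak in a genotype has a fitted change that depends on the value added before the logarithm and bounds no fold. P-values were adjusted over all windows tested, a window was called at an adjusted p under 0.05, and each p measures only the spread between these libraries. All mutants were compared with the same 2 H3WT libraries.

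Pax6 and Pax4 act together in the endocrine pancreas, and Pax6 also directs the eye and forebrain. The Pax6 window (chr2:105648900-105717364, ENSMUSG00000027168) had 22.6% and 27.8% of its bases under H3K27me3 peaks in H3WT. In H3WT replicates 1 and 2 the start itself lay between peaks, and 32.5% of the 1 kb on either side was covered. In H3WT replicate 3 all of it was covered. No base was covered in either H3R2C library, where the nearest peak lay up to 242 kb from the gene. In H3R8C the covered share was 31.7% and 37.5%, and in H3R17C 25.5%. In H3R26C it was 44.8% and 36.8%, above both H3WT libraries.

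The scaled signal at Pax6 was 2.04 and 2.67 in H3WT, 0 and 0 in H3R2C, 2.92 and 3.12 in H3R8C, and 4.00 and 6.40 in H3R26C. The H3R2C libraries lay below all others and the H3R26C libraries above all others. The fitted change in H3R2C was -3.37 ± 0.25 (log2, SE, adjusted p = 0.000326 by limma). The domain over the start, a region of 20.3 kb running from -15.2 to 5.1 kb of the start site, gave -3.19 ± 0.24 (adjusted p = 0.000185). The H3WT libraries had a scaled signal of 1.8 and 2.28 in that region, and the weakest peaks anywhere in the H3R2C lists stood at 0.153 and 0.177.

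In H3R26C the Pax6 signal rose by 1.04 ± 0.25 on the log2 scale (adjusted p = 0.0293). This call ended when any single library other than H3R26C replicates 1 and 2 was left out, with changes of 0.72 to 1.22 and adjusted p up to 0.121. The start domain alone gave 0.81 ± 0.24, which did not pass (adjusted p = 0.0734). Regions of Pax6 called in H3R26C only, at -21.6 to -17.4 kb and at 21.4 to 23.6 kb from the start, lay outside the stretch covered in H3WT. They were tested through H3R26C alone, so a higher value there was fixed by the filter. Their scaled signal in H3R26C was 0.15 to 0.27, and the weakest peaks of its lists stood at 0.136 and 0.195. H3R2C minus H3R26C, tested directly, was -4.41 ± 0.25 (adjusted p = 0.00016). The window also holds the 3′ end of Elp4, which reaches to chr2:105701027 and whose start lies 236 kb away. The last H3K27me3 region in the window ended at chr2:105692500, so none of the called signal lay over Elp4.

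Pax4, which acts in pancreatic beta and delta cells, carried a compact domain over its start in all 9 libraries. Peaks over the start were 7.15 to 12.2 kb long, and 6.9 kb from -3.7 to 3.2 kb was covered in every library. The covered share of its window (chr6:28422334-28469353) ran from 15.2% in an H3R26C library to 26.8% in an H3WT library. The scaled signal was 1.63 and 1.56 in H3WT, 1.16 and 1.61 in H3R2C, 1.47 and 1.36 in H3R8C, and 1.45 and 1.42 in H3R26C. The groups overlapped or lay close together, and no change passed (adjusted p = 0.477 in H3R2C, log2 change -0.19 ± 0.19). Pax4 and Pax6 thus differed in H3R2C, with a peak over the start of Pax4 in both libraries and over that of Pax6 in neither.

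Pax7 and Pax3 act in muscle progenitors and the neural crest, and Pax7 marks the satellite cells of muscle. The Pax7 window (chr4:139717062-139853528) was covered over 17% and 25.6% of its bases in H3WT, 10.6% and 4.73% in H3R2C, 19.7% and 20.2% in H3R8C, 14.2% in H3R17C, and 18.3% and 16.9% in H3R26C. Both H3R2C libraries had the lowest shares. The domain over the start was 19 and 20.4 kb long in H3WT. It was 14.5 kb long in H3R2C replicates 1 and 2, and in H3R2C replicate 3 a single peak of 6.45 kb remained, 2.53 to 8.98 kb downstream of the start. That stretch was the part of the Pax7 window covered in all 9 libraries.

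The scaled signal at Pax7 was 6.37 and 7.64 in H3WT, 1.66 and 1.45 in H3R2C, 6.41 and 6.24 in H3R8C, and 5.96 and 8.82 in H3R26C. Only the H3R2C libraries stood apart from the rest. The signal fell by 2.00 ± 0.20 on the log2 scale in H3R2C (adjusted p = 0.000819). The region of 22 kb over the start changed by -1.79 ± 0.18 (adjusted p = 0.000627). H3R2C minus H3R26C was -2.06 ± 0.20 (adjusted p = 0.000462). Per covered kb the signal was 0.275 and 0.218 in H3WT and 0.115 and 0.225 in H3R2C, so that within the remaining peaks it was low in H3R2C replicates 1 and 2 only. A flanking region at -20.7 to -16.6 kb, present in all H3WT, H3R8C and H3R26C libraries, had no peak in H3R2C (-1.34 ± 0.38, adjusted p = 0.0426). Its scaled signal in H3WT was only 0.27 and 0.52, and the weakest peaks of the H3R2C lists stood at 0.153 and 0.177. Among all regions, 12.5% were lower and 17.7% higher in H3R2C.

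Pax3 (chr1:78081267-78217134) had no H3K27me3 peak in its window in any genotype. The nearest peak lay 113 to 166 kb from the gene, and its window did not enter the test. The paralogs Pax3 and Pax7 therefore differed in all 9 libraries.

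Pax1 and Pax9 act in the sclerotome, which forms the vertebrae, and in the pharyngeal pouches, and Pax9 is needed for teeth. The Pax1 window (chr2:147341925-147413295) was covered over 49.4% and 42.6% of its bases in H3WT. The share was 14.9% and 14.1% in H3R2C, 0 in both H3R8C libraries, 32.9% in H3R17C, and 30.5% and 12.8% in H3R26C. Every mutant library lay below both H3WT libraries. Of the 35.6 kb covered in any library, 2.85 kb from -2.52 to 0.33 kb of the start was shared by all 7 libraries with a peak. The RefSeq promoter shown above, 3.07 kb downstream of the annotated start, lay under a peak in 2 libraries.

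The scaled signal at Pax1 was 5.81 and 4.61 in H3WT, 0.88 and 1.49 in H3R2C, 0 and 0 in H3R8C, and 1.98 and 2.21 in H3R26C. The 4 genotypes did not overlap. The signal fell by 1.95 ± 0.26 on the log2 scale in H3R2C (adjusted p = 0.00205), and the fitted change in H3R8C, where no peak was called, was -4.44 ± 0.26 (adjusted p = 0.0026). The domain over the start, 18.9 kb from -12.1 to 6.83 kb, gave -1.68 ± 0.19 in H3R2C (adjusted p = 0.00131) and -3.77 ± 0.19 in H3R8C (adjusted p = 0.000163). Its scaled signal in H3WT was 3.39 and 2.97, whereas the weakest peaks of the H3R8C lists were at 0.125 and 0.132. The nearest H3K27me3 peak lay up to 162 kb from Pax1.

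In H3R26C the Pax1 signal fell by 1.21 ± 0.26 on the log2 scale (adjusted p = 0.0203). The call ended without H3WT replicates 1 and 2 (-1.05, adjusted p = 0.0965), without H3WT replicate 3 (-1.37, adjusted p = 0.0566), without H3R26C replicates 1 and 2 (-1.14, adjusted p = 0.0772) and without H3R26C replicate 3 (-1.29, adjusted p = 0.0808). H3R2C minus H3R26C was -0.74 ± 0.26 and did not pass (adjusted p = 0.0512). It passed with a pseudocount of 1 (-0.51, adjusted p = 0.0461), a 50 kb flank, eBayes without trend, H3R17C added, chromosome medians set to 0 and all 3 labelled replicates. Without H3R2C replicate 3 it also passed (-1.05, adjusted p = 0.0229), and over all settings the adjusted p ran from 0.00135 to 0.64.

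Pax9 (chr12:56671767-56732822) had no peak over its start in any of the 9 libraries. Its peaks lay upstream, between -20.8 and -3.57 kb. The scaled signal was 1.05 and 0.44 in H3WT, 0.97 and 0.62 in H3R2C, 0.49 and 0 in H3R8C, and 0.82 and 0 in H3R26C. These values overlapped, and no change passed. Its window also holds the 3′ end of Slc25a21.

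**Figure D2:**
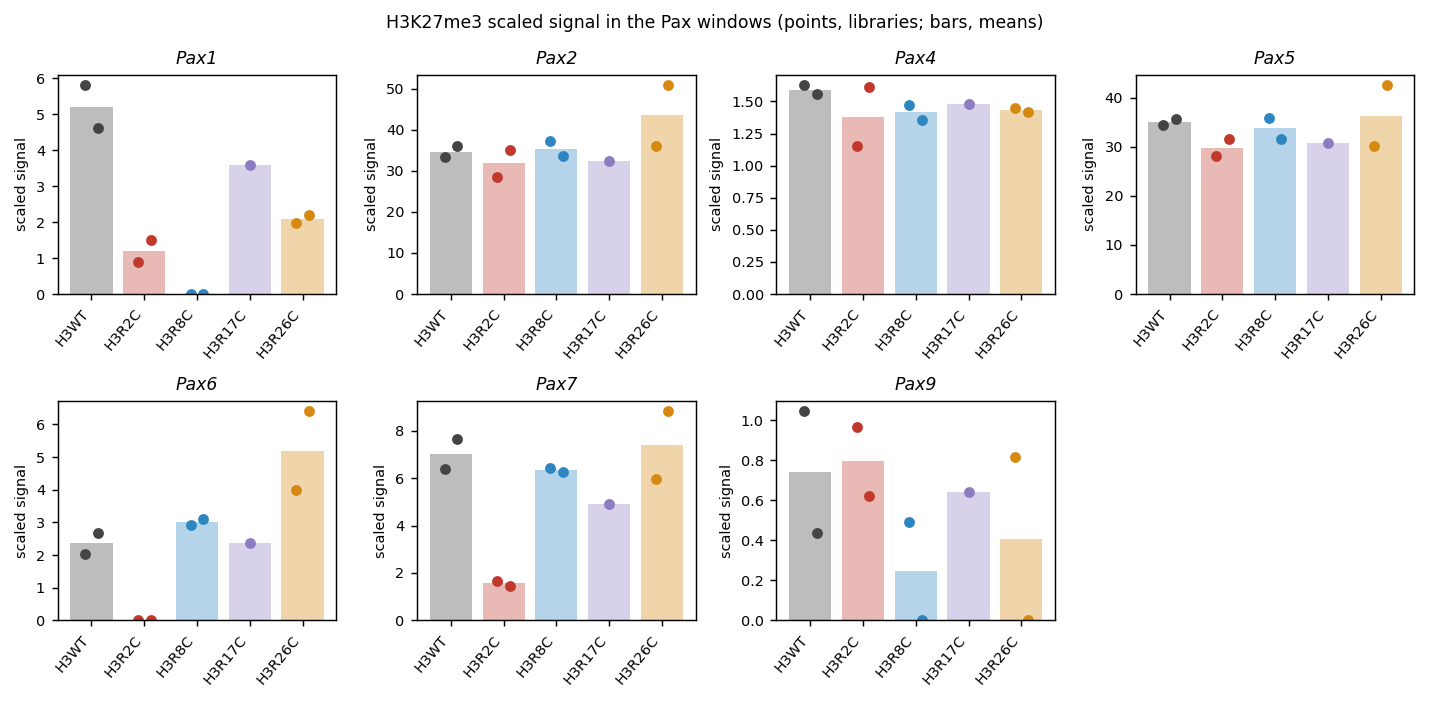
Scaled H3K27me3 signal (linear axis from 0) of the 7 measured Pax windows, with a point for each library and a bar for the mean of the genotype, H3R17C having 1 library and being scaled in the set of 9. H3R2C points lay below all H3WT points at Pax1, Pax5, Pax6 and Pax7, and genotypes overlapped or lay close at Pax2, Pax4, Pax5 and Pax9.

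Pax2, Pax5 and Pax8 share a role at the midbrain-hindbrain boundary. Pax2 is needed for the kidney, eye and ear, Pax5 for B cells and Pax8 for the thyroid. The Pax2 window (chr19:44736045-44857871) was the most fully marked of the family, with 89.3% to 98.5% of its bases under peaks in the 9 libraries. It stood at or above the 99.8 percentile of all windows in each. Of its 122 kb, 104 kb was covered in all 9 libraries. The region over the start was 139 kb long and at the 99.97 percentile of length among 20900 consensus regions.

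Edges of the Pax2 domain recurred between libraries, within 0.1 kb. A peak ended at 12.5 kb in 7 libraries and the next began at 13.8 kb in 6, and a peak ended at 84.4 kb in 7. The scaled signal was 33.3 and 36.0 in H3WT, 28.5 and 35.2 in H3R2C, 37.3 and 33.5 in H3R8C, and 36.1 and 50.9 in H3R26C. The genotypes overlapped apart from H3R26C replicate 3, and no change of the window passed (H3R2C, -0.13 ± 0.24, adjusted p = 0.723). A separate region of 8.95 kb beyond the 3′ end, 97.1 to 106 kb from the start, did fall in H3R2C, from 1.17 and 1.08 in H3WT to 0.56 and 0.62, by 0.71 ± 0.13 on the log2 scale (adjusted p = 0.00926).

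The Pax5 window (chr4:44504757-44730487) was covered over 57.7% to 85.2% of its bases by 13 to 23 separate peaks. The peak over the start was longest in H3WT replicate 3, at 89.7 kb, and shortest in H3R2C replicate 3, at 10.5 kb. The latter ended at -0.764 kb from the start and covered 11.8% of the 1 kb on either side. It did not reach the Pax5 promoter, which was under a peak in 8 libraries. The scaled signal was 34.5 and 35.6 in H3WT, 28.1 and 31.6 in H3R2C, 35.9 and 31.6 in H3R8C, and 30.1 and 42.6 in H3R26C. Both H3R2C values lay below both H3WT values, but the change of -0.23 ± 0.23 did not pass (adjusted p = 0.464). The region of 107 kb over the start, from -44.2 to 63.1 kb, changed by -0.40 ± 0.27 (adjusted p = 0.322). A region of 38.6 kb over the 3′ end, from 158 to 197 kb, changed by 0.22 ± 0.14 (adjusted p = 0.284).

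Pax8 (chr2:24400560-24495599) had no H3K27me3 peak in any library, and the nearest lay 99.6 to 236 kb away. Per kb of window the scaled signal was highest at Pax2, with a median of 0.289 over the 9 libraries, and next at Pax5 with 0.14. In H3WT, Pax1 came next (0.0815 and 0.0645), followed by Pax7 (0.0467 and 0.056). Pax6 (0.0298 and 0.039) and Pax4 (0.0346 and 0.0331) overlapped, and Pax9 was lowest of the 7 (0.0171 and 0.00718). In all libraries the lowest value of Pax2, 0.234, exceeded the highest of Pax5, 0.189. Over all genotypes the ranges of Pax7, Pax6, Pax4 and Pax1 overlapped.

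Counted together, 3 of the 7 measured Pax windows were lower in H3R2C and none higher, beside 14.4% lower and 20.6% higher among all windows. The median change of the 7 windows was -0.23 and that of all windows 0.12 (log2). In H3R26C, 1 was lower (Pax1) and 1 higher (Pax6), beside 13.2% and 10.1%. In H3R8C, 1 was lower (Pax1) and none higher, beside 1.7% and 1.61%. The lone H3R17C library had a scaled signal of 3.60 at Pax1, 2.36 at Pax6 and 4.91 at Pax7. In H3R17C no Pax window was called by limma and none had an unadjusted p under 0.05, and over all windows 0.0366% were lower and 0% higher.

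H3R2C minus H3R26C called 2 Pax windows lower (Pax6 and Pax7) and none higher, beside 20.3% and 30.4%. In the joint contrast, H3R2C and H3R26C together against H3WT and H3R8C together, Pax6 (-1.33 ± 0.18) and Pax7 (-0.91 ± 0.14) were lower and Pax1 higher (0.64 ± 0.18, adjusted p = 0.0349), beside 16.6% and 19.8%. In H3R26C minus H3WT, Pax6 was higher (1.04) and Pax7 changed by 0.0548 without a call. The lower joint values at Pax6 and Pax7 came through H3R2C and were not a fall shared by both mutants. The value at Pax1 was positive with H3R8C at 0. Treating the 8 libraries as 2 groups of 4, an alternative added after the data were seen, called none of them.

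**Figure D3:**
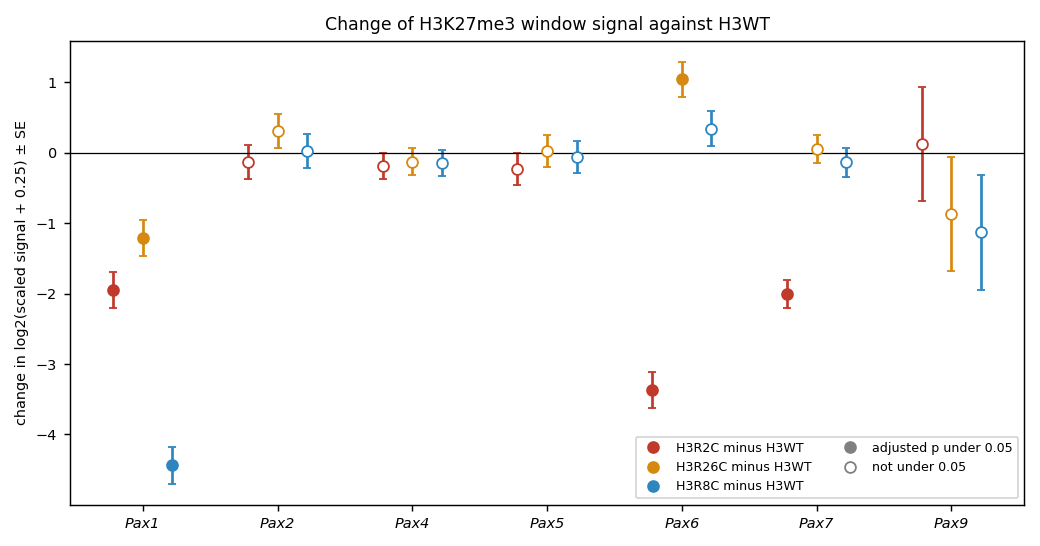
Change of log2(scaled signal + 0.25) against H3WT with its SE, for each measured Pax window and 3 mutants, filled where the adjusted p was under 0.05. Filled points were Pax1, Pax6 and Pax7 in H3R2C, Pax1 and Pax6 in H3R26C and Pax1 in H3R8C.

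The share of the window under peaks uses no signal height. It called Pax1 (-31.5 ± 6.4 percentage points, adjusted p = 0.0322) and Pax6 (-25.2 ± 5.0, adjusted p = 0.0312) lower in H3R2C, where 3.05% of all windows were lower and 6.5% higher. Pax7, at -13.7 ± 4.5, did not pass (adjusted p = 0.11). In H3R8C it called Pax1 lower (-46.0 ± 6.4, adjusted p = 0.0461), beside 0.11% of all windows lower and 0.452% higher. In H3R26C it called no Pax window by limma, 2 had an unadjusted p under 0.05, and 0.904% of all windows were lower and 0.781% higher. The calls in H3R2C and H3R8C ended when any single library of H3WT, H3R2C or H3R8C was left out, with adjusted p of 0.0546 to 0.256. H3R2C minus H3R26C called Pax6 (-40.8 ± 5.0, adjusted p = 0.00778), beside 5.34% of all windows lower and 14.5% higher.

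The consensus regions over the 6 marked starts were called as follows. In H3R2C, those of Pax1, Pax6 and Pax7 were lower, beside 12.5% of all regions lower and 17.7% higher. In H3R26C that of Pax1 was lower (-1.10 ± 0.19, adjusted p = 0.0144), beside 7.26% and 8.46%, and the call ended without either H3WT library (adjusted p = 0.0791 and 0.0548). In H3R8C that of Pax1 was lower, beside 2.66% and 3.3%. H3R2C minus H3R26C called Pax6 and Pax7 lower, beside 18.9% and 22.7%. The joint contrast called the same regions lower and that of Pax1 higher, beside 14.9% and 21.4%. In H3R26C minus H3WT the regions of Pax6 and Pax7 were not lower (0.81 and 0.157), so their joint calls came through H3R2C.

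By presence of a peak over the start, H3R2C lost Pax6 of the 6 marked Pax starts, beside 26.1% of the 1942 starts marked in both H3WT libraries. H3R8C lost Pax1, beside 4.22%. H3R26C lost none of the 6, beside 9.37%. None of the 3 unmarked Pax starts gained a peak in both libraries of a mutant, beside 1.09% in H3R2C, 0.823% in H3R8C and 0.921% in H3R26C.

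**Figure D4:**
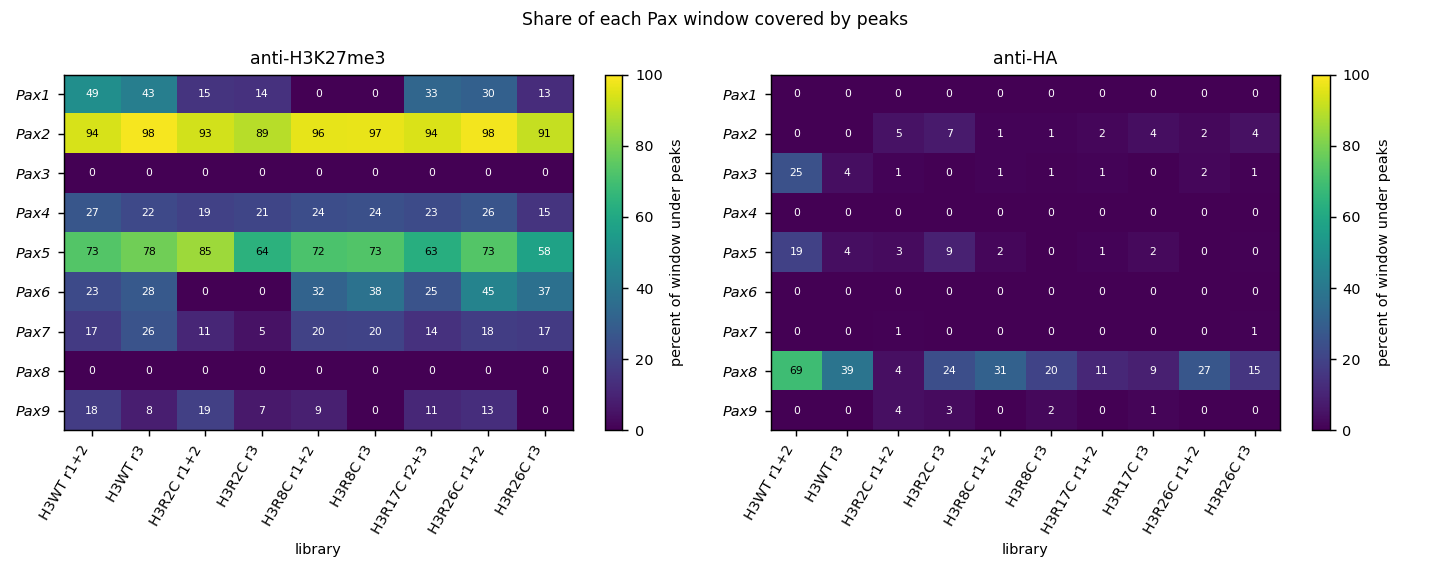
Percent of each Pax window under H3K27me3 peaks (left) and HA peaks (right) in every library, with the rounded percent in each cell. H3K27me3 was highest at Pax2 and Pax5 and was 0 at Pax3 and Pax8, whereas HA was highest at Pax8 in 9 of the 10 libraries and at Pax2 in H3R2C replicates 1 and 2.

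The HA lists showed where tagged histone was called. Pax1, Pax4 and Pax6 had no HA peak in their windows in any of the 10 libraries. Over all protein-coding genes, 41.9% to 60.3% of windows held an HA peak, depending on the library. At Pax7 the share under HA peaks was at most 0.55% and at Pax2 at most 7.06%. Pax5 had 19.2% and 3.68% in H3WT, 2.86% and 8.99% in H3R2C, and at most 2.48% in the other mutants. Pax8 had 69.1% and 38.5% of its window in H3WT, 4.1% and 23.9% in H3R2C, 31.1% and 20.2% in H3R8C, 11% and 8.89% in H3R17C, and 26.7% and 15.4% in H3R26C. It had the highest share of the family in 9 of the 10 libraries, and in H3R2C replicates 1 and 2 Pax2 had more (4.76%). The Pax8 window also holds the 3′ end of Psd4, and its HA share includes peaks there. Such peaks ran from 60.3 to 102 kb from the Pax8 start in H3WT replicates 1 and 2, and from 63.4 to 67.7 kb in H3WT replicate 3. Pax3 had 24.8% in H3WT replicates 1 and 2, 3.9% in H3WT replicate 3 and at most 1.91% in the mutants.

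Of 13638 windows tested for HA cover, 5 were Pax windows. In H3R2C, Pax8 was lower (-39.8 ± 11.2 points, adjusted p = 0.0301) and Pax2 (5.91 ± 1.46, adjusted p = 0.0206) and Pax9 (3.44 ± 0.82, adjusted p = 0.0185) were higher, beside 28.7% and 6.92% of all windows. A window was tested when both libraries of at least 1 genotype had a peak in it. Pax9 met this through H3R2C alone and Pax2 through the mutants alone, both being at 0 in H3WT, so the filter fixed the direction of these changes. In H3R17C, Pax8 was lower (-43.9 ± 11.2, adjusted p = 0.0263), beside 29% lower and 0.865% higher. H3R8C and H3R26C gave no Pax call by limma, with 2 and 3 Pax windows at an unadjusted p under 0.05, beside 9.18% and 15.3% lower and 0.117% and 0.521% higher. The median change over all windows was -8.32 points in H3R2C and -9.54 in H3R17C, and peaks of H3WT replicates 1 and 2 had the greatest median width, 10.7 kb. Without that library the Pax8 changes were -24.5 in H3R2C (adjusted p = 0.0926) and -28.6 in H3R17C (adjusted p = 0.0669), and neither passed. The calls at Pax8 and Pax9 in H3R2C ended without H3R2C replicates 1 and 2 (-29.9 and 2.78 points, adjusted p = 0.17 and 0.0855), and both Pax8 calls ended without any single H3R17C or H3R26C library (adjusted p = 0.0522 to 0.137). The part of peak width in these results was not tested.

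Genes that work beside Pax factors were read in the same way, by scaled signal. Over all windows 14.4% were lower and 20.6% higher in H3R2C, 13.2% and 10.1% in H3R26C, and 1.7% and 1.61% in H3R8C, and the counts below stand beside these. Of 13 genes of the Pax4 and Pax6 lineage (eye, pancreas and forebrain), 11 were measured, 6 were lower in H3R2C and none higher, beside 14.4% and 20.6% of all windows, with a median change of -1.31. Nkx6-1, a beta-cell factor, went from 2.91 and 3.22 in H3WT to 0 and 0.2 in H3R2C (-3.30 ± 0.33, adjusted p = 0.00083). Pdx1, required for the pancreas, went from 4.22 and 4.42 to 1.04 and 0.84 (-1.95 ± 0.18, adjusted p = 0.000664). Nkx2-2 went from 5.50 and 5.92 to 1.72 and 1.81 (-1.56 ± 0.15, adjusted p = 0.000717). Sox2 and Neurod1 were also lower. In H3R26C and in H3R8C none of the 11 was called.

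Of 12 genes of the Pax2 and Pax8 lineage (kidney, thyroid and ear), 8 were measured, and 3 were lower and 2 higher in H3R2C, beside 14.4% and 20.6% of all windows. Tg, among the higher genes, was measured through H3R2C alone, all other libraries being at 0, so it had to be higher there. Wt1, a kidney factor, had 1.95 and 2.17 in H3WT and 0 in both H3R2C libraries (-3.21 ± 0.27, adjusted p = 0.000451). Nkx2-1, a thyroid and lung factor, also fell (-2.20 ± 0.30, adjusted p = 0.00234). Gdnf, a kidney growth factor, rose from 0.27 and 0.41 to 2.69 and 3.54 (2.51 ± 0.25, adjusted p = 0.000774). In H3R26C, Ret was lower and Gdnf higher.

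Of 8 Pax5 lineage genes (B cell and midbrain-hindbrain), 7 were measured, and in H3R2C the B-cell genes Cd79a (1.17 ± 0.26, adjusted p = 0.0145) and Blk (1.00 ± 0.18, adjusted p = 0.00711) rose while En2 and Wnt1 fell. In H3R26C, En2 was higher and Wnt1 lower. Wnt1 had 0.19 and 0.60 in H3WT, where the weakest peaks stood at 0.146 and 0.148, and 0 in H3R2C and H3R26C. Cd79a had no peak over its start in the 8 libraries. En2 was also called lower in H3R2C minus H3R26C.

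Of 8 Pax3 and Pax7 lineage genes (muscle and neural crest), 6 were measured. In H3R2C, Lbx1 (-1.09 ± 0.21, adjusted p = 0.00826) and Foxd3 fell and Myod1 and Sox10 rose. Foxd3, without a peak over its start in the 8 libraries, had 0.24 and 0.66 in H3WT and 0 in H3R2C. In H3R26C, Myod1 (0.97 ± 0.18, adjusted p = 0.012) and Foxd3 rose and Sox10 (-1.24 ± 0.24, adjusted p = 0.0141) fell. Msgn1 was also called higher in both, but it was at 0 in H3WT and was measured through H3R2C and H3R26C alone, so its direction was fixed by the filter. Of 8 Pax1 and Pax9 lineage genes (sclerotome and tooth), 5 were measured. Meox2 fell in H3R2C, and Meox2 (1.79 ± 0.32, adjusted p = 0.0109) and Msx1 (1.21 ± 0.30, adjusted p = 0.0315) rose in H3R26C. The fall of Meox2 was from 0.20 and 0.41 in H3WT to 0, the weakest H3WT peaks being at 0.146 and 0.148. Msx1 had no peak over its start in the 8 libraries.

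Of 10 genes listed as partners of Pax factors in a network of organ formation, among them the Eya and Dach genes, 4 were measured. Eya1 had 7.50 and 7.31 in H3WT, 0 in both H3R2C libraries, and 1.71 and 3.82 in H3R26C (H3R2C, -4.94 ± 0.32, adjusted p = 0.000293). Eya2 also fell in H3R2C (-0.55 ± 0.17, adjusted p = 0.0456), Eya1 alone was lower in H3R26C, and none was lower in H3R8C. Of the 8 libraries in the fit, Dach1 and Dach2 had peaks in those of H3R8C only and were measured through it alone, so their higher call there was fixed by the filter. Of 8 housekeeping genes 1 was measured, and none was called in any mutant. Of the 13 mesenchymal genes 3 were measured, none was called in H3R2C or H3R8C, and Col1a2 (-3.41 ± 0.24, adjusted p = 0.000786) and Twist2 (-1.04 ± 0.25, adjusted p = 0.0289) were lower in H3R26C. Neither had a peak over its start in the 8 libraries. Twist2 went from 0.21 and 0.32 in H3WT, where the weakest peaks stood at 0.146 and 0.148, to 0 in H3R26C.

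The windows most like the Pax genes across the 8 libraries were listed by the correlation of log2 signal, as a description. Closest to Pax6 were Gm42517 (r = 0.997), Sv2c (r = 0.996) and Sp9 (r = 0.995). Closest to Pax7 were Bend4 (r = 0.996), Olig1 (r = 0.995) and Gsx1 (r = 0.994). For Pax1 they were Sox13 (r = 0.952), Tsga10 (r = 0.944) and Dscaml1 (r = 0.939), and for Pax9 Akap4 (r = 0.971), Pnlip (r = 0.936) and Bnc2 (r = 0.931). Pax2, Pax4 and Pax5 varied by less than 1 on the log2 scale, and no likeness was computed for them.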

How the data were processed

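Peak lists of anti-H3K27me3 and anti-HA CUT&RUN samples were analysed, and those of IgG and anti-H3K4me3 were left out. The authors aligned reads to mm10 with Rsubread, as the study's methods state, and called peaks per sample with SEACR 1.3 (stringent, norm, 0.01). The submitters' processing notes also name ChIPseeker 1.28.3 and DESeq2. The deposited lists give the total signal of each peak (coverage summed over its bases) and its maximum signal, not scaled to a common depth. Read filters are not given in the sources used here, and without read totals no counting interval was computed. SEACR keeps a top share of blocks, so the weakest peak differs between lists.

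Titles of the samples gave genotype, antibody and replicate. Lists with identical values were counted once, and 1 list was left out. Starts and gene bodies came from the GENCODE annotation of GRCm38, the build of mm10. Signal inside a window or consensus region (peaks of 8 libraries merged) was divided by the median signal of the regions that all libraries share. Then log2(scaled signal + 0.25), or percent covered, was fitted with limma 3.58.1 (lmFit, eBayes with trend), with 1 spread shared by genotypes and Benjamini-Hochberg adjustment over all windows or regions, and the fit was tested on simulated data. The H3R17C fit assumed that its lone library varied like the others.

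All 9 Pax genes are named, with up to 3 called genes of each list by lowest unadjusted p in H3R2C or H3R26C. Likeness used windows ranging over at least 1 on the log2 scale with a peak in at least 4 libraries. The members and lists were chosen with earlier results of these data known. Further genes of a list are named because their number was small, and some listed genes are not reported here. Alternatives varied the pseudocount, scaling, filters, peak threshold, flank, signal measure, duplicates, block and libraries. Chromosome centring and the fit of 2 groups of 4 were added after the data were seen.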

Additional observations from a re-analysis of the deposited data

Results flagged for a closer look

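H3R2C and H3R26C, compared directly, differed at Pax6 and Pax7, which set these results apart as effects of the same contrast with H3WT that were not alike in the mutants. At Pax6 the difference (H3R2C minus H3R26C) was -4.41 in window signal and -4.00 in the start domain on the log2 scale, and -40.8 percentage points in cover. At Pax7 it was -2.06 in window signal and -1.94 in the start domain. No H3R2C library had a peak at Pax6, so the sizes there depend on the value added before the logarithm. Leaving out single libraries ended none of these 5 calls. No explanation was tested.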

How the results depend on the processing

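The lower window signal of Pax1, Pax6 and Pax7 in H3R2C kept its direction and its call under every alternative in which the window was tested, with log2 changes of -2.46 to -0.89 at Pax1, -5.57 to -1.74 at Pax6 and -2.23 to -0.66 at Pax7. So did the lower value of Pax1 in H3R8C (-6.71 to -2.63). No called change of a single Pax gene reversed, and 429 of 520 such repeats kept the call. The cause of the changed counts below was not tested, except where the filter removes windows.

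Requiring a peak in every library removed Pax1, Pax6 and Pax9. By signal it left 1 lower Pax window in H3R2C minus H3WT, in H3R2C minus H3R26C and in the joint contrast (H3R2C and H3R26C against H3WT and H3R8C) and 0 in all other counts, and by cover it left 0. Signal as deposited left 1 lower and 0 higher in the joint contrast and 0 calls in H3R26C. In H3R26C, maximum signal and a 5 kb flank gave 0 calls and a 0 kb flank 0 lower. The joint higher call (Pax1) went to 0 with pseudocount 1 (start domain too), the upper 50% of peaks, flanks of 0 and 5 kb, chromosome medians set to 0 and 2 groups of 4 libraries, which also left 0 lower.

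By cover in H3R2C, 1 lower call was left with the upper 50% of peaks, flanks of 5 and 50 kb, eBayes without trend and the replicate block, and 0 with no flank. In H3R8C those settings and a lax filter left 0. Replicate numbers did not pair the libraries (correlations of deviations from -0.0289 to 0.241), and the block changed no other Pax count, with Pax6 in H3R2C at -3.37 (adjusted p = 0.00103). Counting all 3 labelled replicates gave 4 lower in H3R2C minus H3R26C by signal, where pseudocount 1 gave 3. By cover, all 3 replicates gave 1 lower and 1 higher in H3R26C and 2 lower in both H3R2C minus H3R26C and the joint contrast, and by HA 3 lower in each mutant and 1 higher in H3R17C and H3R26C. With the upper 50% of HA peaks, 1 was higher and 0 lower in H3R2C and 0 lower in H3R17C.

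Without single libraries, lower calls by cover ranged from 0 to 2 in H3R2C, 0 to 1 in H3R8C and 0 to 1 in H3R26C. By signal, lower and higher calls in H3R26C and the joint higher call ranged from 0 to 1, as did the start-domain calls in H3R26C and the joint higher one. HA lower calls ranged from 0 to 3 in each mutant and higher calls in H3R2C from 1 to 2. The peak threshold of each list, not given as a read depth, limits what an absent peak can show.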
